A study of Mus musculus with 6 samples.

Results

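The genes described here are the 39 mouse genes of the Eph and ephrin, Slit and Robo, and netrin guidance systems that a symbol search found among the 37086 genes of the series. They comprise 5 ephrin-A and 3 ephrin-B ligands, 9 EphA and 5 EphB receptors, 3 Slits, 4 Robos, 4 netrins, 4 Unc5 receptors, and Dcc with its relative Neo1. Each gene is represented by the transcript with the most reads over all libraries. All RNA was 1 stock made from pooled dorsal root ganglia, the sensory ganglia beside the spinal cord, of 18 embryos (strain C57BL/6J, genotype wild type, embryonic day 14.5, sex unknown), and 6 libraries were prepared from it. High-volume libraries took up the RNA in 9 µl with the SMARTer Ultra Low Input RNA kit in its HV version. Low-volume libraries took it up in 1 µl with the SMARTer Ultra Low RNA Kit. Each volume was used at 3, 10 and 30 ng of RNA, with 1 library per combination. Volume and kit therefore cannot be told apart. No group carries a mutation or treatment, and all SDs, SEs and p-values measure the spread between technical repeats of 1 pool, not between embryos.

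Ephrins are membrane-bound ligands, the A type anchored by a lipid and the B type by a transmembrane segment, and Eph receptors are tyrosine kinases that meet them at cell contacts. Slits are secreted proteins read by Robo receptors, and netrins are laminin-related proteins read by Dcc and Neo1 and, where they repel, by Unc5 receptors. In the embryo these systems steer sensory axons toward the spinal cord and the periphery, keep them out of some territories, and also act in neural crest migration and blood vessel growth.

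Levels are the authors' RPKM, reads scaled to the length of the exons and to the size of the library, and reads are called tags. The chosen transcripts of all genes held 14160397 to 31524210 tags per library, least in the 3 ng libraries. As a check of the tissue label, all 8 sensory neuron genes examined and all 6 glial genes had a mean of 1 RPKM or more, against 0 of 8 spinal cord genes. Markers of other cells were present too, among them 7 of 7 endothelial, 6 of 6 fibroblast and meningeal and 4 of 4 macrophage genes. So were 4 of 4 erythroid, 3 of 4 skeletal muscle, 2 of 4 cartilage and 2 of 4 epidermal genes, against 0 of 4 sympathetic genes. Of 4 floor plate genes 1 reached 1 RPKM, Spon1 at 3.59 RPKM, while the others, Foxa2 and Shh among them, had means under 0.1 RPKM. In these bulk samples, fewer cells of a type and less RNA per cell cannot be told apart, and no value below is assigned to a cell type.

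Most of the guidance genes were detected at low to moderate levels. Of the 39 members, 2 had a mean RPKM of 10 or more, 22 had a mean of 1 or more, 15 lay between 0.1 and 1, and 2 lay under 0.1. Their median was 1.15 RPKM, against 3.42 RPKM over the 16120 genes that passed the count filter and 0.116 RPKM over all genes. All 8 ephrins reached 1 RPKM, and so did 4 of the 5 EphB receptors and 3 of the 4 Robos. Of the 9 EphA receptors 2 reached it, of the 4 netrins 1, and of the 3 Slits 1. Together the members took 0.0429% to 0.0461% of the tags that a library held in the chosen transcripts of all genes. Every member had tags in all 4 libraries of 10 and 30 ng. At 3 ng, Epha6, Ntn4, Slit3 and Unc5a had 0 tags in the high-volume library, and Dcc, Epha10, Epha6, Ntn4 and Robo3 had 0 in the low-volume library.

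**Figure D1:**
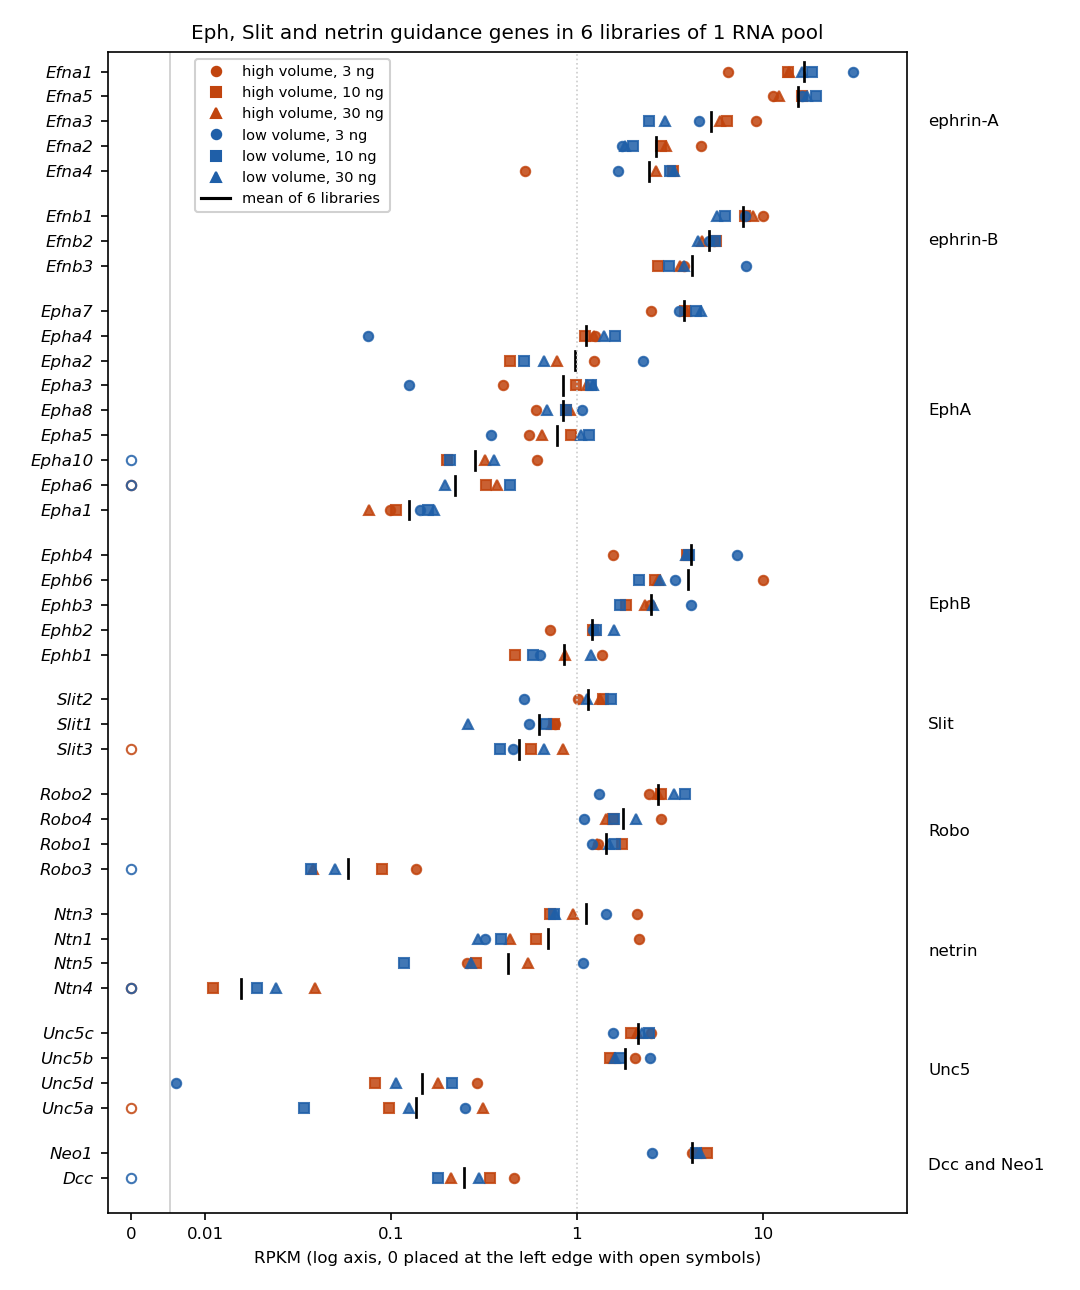
RPKM (log axis) of each of the 39 members in the 6 libraries, ordered by role and mean, where black bars are means and open symbols at the left edge are libraries with 0 tags. Efna1 and Efna5 lie farthest right, at means of 16.6 and 15.5 RPKM, and the 3 ng libraries (circles) are often the farthest from the others of their row.

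Among the ephrin-A ligands, Efna1 and Efna5 were the members with the highest means of all 39. Efna1 (chromosome 3, 89271733 to 89279645, minus strand, GRCm38), an ephrin also made by blood vessels, was at 6.503, 13.7 and 13.8 RPKM in the 3, 10 and 30 ng high-volume libraries and at 30.8, 18.5 and 16.2 RPKM in the low-volume libraries. Its mean was 16.6 ± 8.05 RPKM (SD, n = 6), above 91.1% of all genes. Each low-volume library lay above each high-volume library, and both 3 ng libraries were the extremes. Efna5 (chromosome 17, 62604184 to 62881317, minus strand), a repellent of several axon types, was at 11.4, 16.3 and 12.3 RPKM in high volume and 16.3, 19.4 and 17.4 RPKM in low volume, with a mean of 15.5 ± 3.06. Its groups came close without overlapping.

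Efna3 (chromosome 3, 89313899 to 89322965, minus strand), an ephrin-A of neurons, showed the reverse order. It was at 9.27, 6.40 and 5.92 RPKM in the 3, 10 and 30 ng high-volume libraries and at 4.55, 2.43 and 2.99 RPKM in the low-volume ones, a mean of 5.26 ± 2.51 (SD, n = 6). All high-volume libraries lay above all low-volume libraries. Efna2 and Efna4 had means of 2.68 ± 1.11 and 2.45 ± 1.13 RPKM. Efna1, Efna3 and Efna4 lie next to each other on chromosome 3, with gaps of 34253 bases between Efna1 and Efna3 and 10424 bases between Efna3 and Efna4. Despite that shared position their means spanned 2.45 to 16.6 RPKM. Some exonic bases are shared with other genes, 14.6% of those of Efna3 with Gm15998 and 10.5% of those of Efna4 with 4731419I09Rik, and tags there cannot be assigned to 1 gene.

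The 3 ephrin-B ligands, which signal into their own cell as well as outward, had means of 7.81, 5.16 and 4.19 RPKM. Efnb1 (X chromosome, 99136130 to 99148991, plus strand), the ephrin-B gene of craniofrontonasal syndrome, was at 10.1, 8.06 and 8.83 RPKM in the 3, 10 and 30 ng high-volume libraries and 7.998, 6.24 and 5.68 RPKM in low volume, a mean of 7.81 ± 1.62 (SD, n = 6). Each high-volume library exceeded each low-volume library, by a narrow margin at the closest. Efnb2 (chromosome 8, 8617434 to 8660773, minus strand), known as an arterial marker, varied least of the 3, at 5.45, 5.63 and 4.72 RPKM in high volume and 5.15, 5.53 and 4.48 RPKM in low volume, with a mean of 5.16 ± 0.471. The 7 endothelial markers summed to 78.4 to 90.2 RPKM per library. The 4 markers of arterial endothelium summed to 8.18 to 14.5 RPKM, and 2 of them reached a mean of 1 RPKM. How much of Efnb2 comes from vessels was not tested. Efnb3 (chromosome 11, 69554092 to 69560205, minus strand), a midline repellent of the spinal cord, was at 3.75, 2.73 and 3.60 RPKM in high volume and 8.11, 3.14 and 3.80 RPKM in low volume. Its 3 ng low-volume library stood alone, and the other 5 libraries overlapped.

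Epha7 was the EphA receptor with the highest mean. The gene (chromosome 4, 28813131 to 28967499, plus strand) encodes a full-length tyrosine kinase receptor and, by alternative splicing, shorter forms without the kinase domain that are known to alter the response of the full-length form. It was at 2.50, 3.81 and 3.85 RPKM in the 3, 10 and 30 ng high-volume libraries and at 3.55, 4.40 and 4.67 RPKM in low volume, a mean of 3.80 ± 0.758 (SD, n = 6). The groups overlapped, and the lowest library was the 3 ng high-volume one. Exon by exon, the tags thinned abruptly at the splice junction where the full-length and truncated transcripts part. The sequences at that junction, from GENCODE M21 transcripts on GRCm38 and all on the plus strand, show the shared exon 9 (chr4:28943323-28943378), the full-length exon 10 (chr4:28947528-28947653) with in capitals the 12 bases that a shorter variant of this exon lacks, and the coding start of the truncated exon 10 (chr4:28946219-28946253) with its stop codon in capitals.
Epha7 exon 9: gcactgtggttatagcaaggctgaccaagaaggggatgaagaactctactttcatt
Epha7 full-length exon 10: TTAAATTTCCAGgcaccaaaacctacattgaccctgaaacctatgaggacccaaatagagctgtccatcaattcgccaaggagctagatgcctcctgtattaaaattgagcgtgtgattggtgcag
Epha7 truncated exon 10: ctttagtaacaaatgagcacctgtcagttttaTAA

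Exons 2 to 9 of Epha7 held 2047 tags in 1701 bases, and exons 10 to 16, which follow the junction just shown, held 716 tags in 1084 bases. The density after the junction was 0.549 times that before it (exact 95% interval 0.503 to 0.598, which covers counting error only, since PCR copies are not independent molecules). In RPKM, exons 2 to 9 were at 5.66, 6.93 and 7.95 in the 3, 10 and 30 ng high-volume libraries and at 9.00, 8.50 and 9.23 in low volume. Exons 10 to 16 were at 1.67, 3.71 and 4.25 RPKM in high volume and 3.76, 5.78 and 5.52 RPKM in low volume. The later stretch was lower in 6 of 6 libraries. The terminal exon of the truncated transcript, 829 bases with the TAA stop printed above, held 254 tags. Its level was 2.07 ± 1.55 RPKM (SD, n = 6), from 0.234 RPKM in the 3 ng high-volume library to 4.56 RPKM in the 3 ng low-volume library. Its pooled tag density was 0.464 times that of exons 10 to 16 (0.400 to 0.536), and it was the higher in 1 of 6 libraries. In the 30 ng high-volume library it was at 0.599 RPKM. Whether truncated transcripts account for the drop after exon 9 was not tested.

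The same comparison by exon number in 11 other Eph receptors mostly ran the other way. In 9 of them the later exons were denser than exons 2 to 9, by 2.25 times in Epha4 to 7.51 times in Epha1, whose early exons held 4 tags. In Epha6 the ratio was 0.795, and its interval of 0.506 to 1.23 included 1. Epha3 shared the direction of Epha7, at 0.594 (exact 95% interval 0.473 to 0.742), with fewer tags. Along Epha3 the density fell to 0.248 times (0.174 to 0.346) from exons 2 to 5 to exons 6 to 11, which held 41 tags. It then rose 2.39 times (1.64 to 3.53) in exons 12 to 16. The rise was seen in 4 of 6 libraries, since both 3 ng libraries had 0 tags in exons 6 to 11 and in exons 12 to 16. These 3 stretches were chosen after the tags per exon were seen, so their intervals are no test of them. Epha3 is known for a secreted splice form, but the tags per exon do not tell transcripts apart. Epha5 and Epha10, with shorter chosen transcripts, were not compared.

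**Figure D2:**
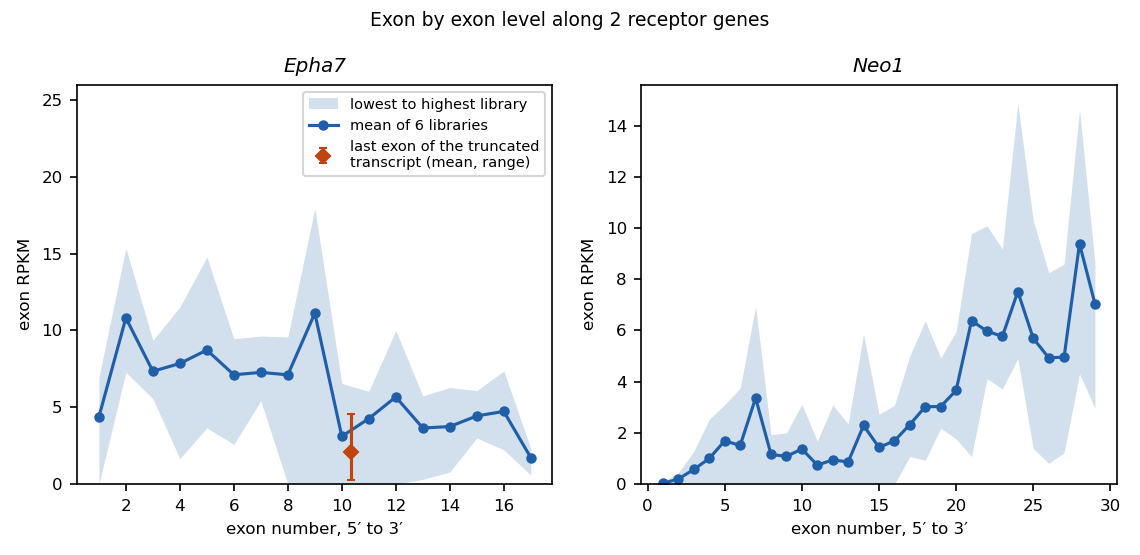
RPKM of each exon of Epha7 and Neo1 from 5′ to 3′, where points are means of 6 libraries, the band runs from the lowest to the highest library, and the diamond is the last exon of the truncated Epha7 transcript with its range. Epha7 drops between exons 9 and 10, whereas Neo1 rises toward its 3′ end.

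The other EphA receptors were low. Epha4 (chromosome 1, 77367185 to 77515088, minus strand), which binds both ephrin types and acts in motor and sensory axon choice, was at 1.25, 1.11 and 1.24 RPKM in the 3, 10 and 30 ng high-volume libraries and 0.075, 1.61 and 1.40 RPKM in low volume. The 0.075 RPKM came from 8 tags in the 3 ng low-volume library, where the high-volume library of that input had 123. The remaining 5 libraries lay close together. Epha2, Epha3, Epha8 and Epha5 had means between 0.780 and 0.983 RPKM. Epha10, Epha6 and Epha1 had means of 0.283, 0.221 and 0.126 RPKM.

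Of the EphB receptors, Ephb4, the venous partner of ephrin-B2, had the highest mean over all exons, just above Ephb6. Without the last exon the means were reversed, with Ephb6 at 3.77 and Ephb4 at 2.60 RPKM. That rested on the 3 ng high-volume library, with Ephb6 at 9.80 and Ephb4 at 0.505 RPKM. Apart from it, Ephb6 was the higher only at 30 ng in low volume, at 2.67 against 2.54 RPKM. In the remaining libraries Ephb4 was the higher. With the transcript of the highest mean RPKM, Ephb6 was at 6.77 and Ephb4 at 4.34 RPKM. That Ephb6 transcript is only 459 bases long. Ephb4 (chromosome 5, 137350109 to 137374528, plus strand) was at 1.56, 3.94 and 3.94 RPKM in the 3, 10 and 30 ng high-volume libraries and 7.30, 4.01 and 3.89 RPKM in low volume, a mean of 4.11 ± 1.83 (SD, n = 6). The 4 libraries of 10 and 30 ng fell within a narrow band, and the 3 ng libraries lay on either side of it. Ephb6 (chromosome 6, 41605482 to 41620509, plus strand), whose kinase domain is inactive, was at 10.1, 2.65 and 2.73 RPKM in high volume and 3.38, 2.15 and 2.81 RPKM in low volume. One library, 3 ng in high volume, raised its mean to 3.97 RPKM. Ephb3 (chromosome 16, 21204755 to 21223304, plus strand) was at 2.48, 1.84 and 2.33 RPKM in high volume and 4.09, 1.70 and 2.56 RPKM in low volume, and the groups overlapped. Ephb2 and Ephb1 had means of 1.21 ± 0.280 and 0.851 ± 0.363 RPKM.

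Slit2 was the one Slit above 1 RPKM. Slit2 (chromosome 5, 47984793 to 48306282, plus strand), a repellent that also promotes sensory axon branching, was at 1.02, 1.38 and 1.33 RPKM in the 3, 10 and 30 ng high-volume libraries and 0.517, 1.53 and 1.14 RPKM in low volume. The groups overlapped, with the 3 ng low-volume library lowest. Slit1 and Slit3 had means of 0.624 ± 0.194 and 0.486 ± 0.287 RPKM (SD, n = 6).

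Among the Robo receptors, Robo2 was highest and Robo3 nearly absent. Robo2 (chromosome 16, 73892306 to 74410989, minus strand), a Slit receptor of sensory axons, was at 2.45, 2.82 and 2.74 RPKM in the 3, 10 and 30 ng high-volume libraries and 1.32, 3.81 and 3.35 RPKM in low volume, a mean of 2.75 ± 0.851 (SD, n = 6). Robo4 (chromosome 9, 37401897 to 37414019, plus strand), the endothelial member of the family, was at 2.85, 1.57 and 1.44 RPKM in high volume and 1.09, 1.58 and 2.08 RPKM in low volume. Robo1 (chromosome 16, 72663149 to 73046095, plus strand), which often acts beside Robo2, was at 1.31, 1.75 and 1.28 RPKM in high volume and 1.20, 1.61 and 1.48 RPKM in low volume. In each of the 3 genes the groups overlapped. The Robo4 transcript with the most tags is annotated as a target of nonsense-mediated decay. Robo3, which commissural neurons use to cross the midline, had a mean of 0.0587 RPKM with 0 to 11 tags per library, although it lies 2025 bases from Robo4.

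Inside Robo2, exons 21 and 26 had fewer tags than the exons beside them. Both are multiples of 3 bases and fully coding, 42 and 91 codons, so leaving either out keeps the reading frame. Their sequences, from the GENCODE M21 transcript on GRCm38 in transcript direction on the minus strand, are exon 21 (chr16:73933046-73933171) and exon 26 (chr16:73898912-73899184).
Robo2 exon 21: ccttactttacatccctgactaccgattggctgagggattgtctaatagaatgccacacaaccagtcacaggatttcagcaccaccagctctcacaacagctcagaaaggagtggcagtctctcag
Robo2 exon 26: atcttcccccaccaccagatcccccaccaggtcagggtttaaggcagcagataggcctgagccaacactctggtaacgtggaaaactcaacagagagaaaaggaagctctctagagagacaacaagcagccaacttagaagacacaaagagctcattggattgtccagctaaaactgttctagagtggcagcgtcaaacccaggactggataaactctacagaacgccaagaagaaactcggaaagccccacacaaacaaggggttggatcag

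Exon 21 of Robo2 held 44 tags in 126 bases, against 271 in 436 bases of exons 20 and 22, a density ratio of 0.562 (exact 95% interval 0.399 to 0.775, counting error only). Exon 26 held 61 tags in 273 bases, against 239 in 366 bases of exons 25 and 27, a ratio of 0.342 (0.254 to 0.455). Exon 26 was below its neighbours in 6 of 6 libraries and exon 21 in 5 of 6. At 10 ng exon 21 lay close to its neighbours, at 2.15 against 2.31 RPKM in high volume and 4.10 against 4.03 RPKM in low volume. It was farther below them at 30 ng, at 2.82 against 4.88 and 1.40 against 4.93 RPKM. In the 3 ng high-volume library it was at 3.08 against 8.74 RPKM. Exon 26 was at 0, 1.27 and 1.56 RPKM in the 3, 10 and 30 ng high-volume libraries and 0.433, 2.77 and 1.73 RPKM in low volume. Its neighbours were at 2.12, 3.17 and 5.23 RPKM in high volume and 0.807, 6.58 and 5.47 RPKM in low volume. Both exons were chosen for display after their low values were seen, so the intervals are no test of them. Other Robo2 exons were as sparse as exon 26, which held 0.223 tags per base. Among them were exons 7, 8 and 11, at 0.192, 0.209 and 0.209. Exon 21, at 0.349 tags per base, was denser than these and than others such as exons 9, 12 and 16, at 0.277, 0.269 and 0.314. Whether either exon is left out of transcripts was not tested.

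The netrins were scarce. Ntn3 (chromosome 17, 24203848 to 24209387, minus strand), a netrin first described in sensory ganglia, was the highest at 2.098, 0.719 and 0.957 RPKM in the 3, 10 and 30 ng high-volume libraries and 1.44, 0.753 and 0.765 RPKM in low volume, a mean of 1.12 ± 0.549 (SD, n = 6). Both 3 ng libraries were above the others, and the groups overlapped. Ntn1, the floor plate attractant, had a mean of 0.700 ± 0.724 RPKM, of which 2.16 RPKM came in the 3 ng high-volume library and 0.293 to 0.600 RPKM in the others. Ntn5 was at 0.425 RPKM, and 29.5% of its exonic bases are shared with Sec1. Ntn4 was the lowest of all members, at 0.0155 RPKM with 10 tags in all.

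Of the netrin receptors Neo1, Unc5c and Unc5b were above 1 RPKM, and Dcc was not. Neo1 (chromosome 9, 58874679 to 59036441, minus strand), the neogenin receptor of netrins and of repulsive guidance molecules, was at 4.16, 4.99 and 4.45 RPKM in the 3, 10 and 30 ng high-volume libraries and 2.54, 4.38 and 4.58 RPKM in low volume, a mean of 4.18 ± 0.849 (SD, n = 6). The 3 ng low-volume library was the lowest and the groups overlapped. Unc5c (chromosome 3, 141465564 to 141834924, plus strand), a repulsive netrin receptor, was at 2.52, 1.95 and 2.12 RPKM in high volume and 1.57, 2.44 and 2.25 RPKM in low volume. Unc5b (chromosome 10, 60762610 to 60831581, minus strand), a member also found in vessels, was at 2.05, 1.51 and 1.58 RPKM in high volume and 2.46, 1.71 and 1.61 RPKM in low volume. For both Unc5 genes the groups overlapped. Dcc, the attractive netrin receptor of commissural axons, had a mean of 0.248 ± 0.157 RPKM and 0 to 53 tags per library, and Unc5d and Unc5a had means of 0.146 and 0.136 RPKM.

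Where the tags fell along a transcript mattered for these levels. In 5 members at least 95% of the tags lay in the last exon, which holds the 3′ untranslated region, a share of tags that 8.68% of the 15326 tested genes with more than 1 exon also reached. Efna5 was the extreme among the abundant members: 9485 of its tags lay in its last exon of 3280 bases and 77 in exons 1 to 4. A shorter annotated Efna5 transcript ends inside the same exon after 145 bases, and those 145 bases held 10 tags. Without the last exon Efna5 was at 0.649 ± 0.540 RPKM (SD, n = 6), and its place among the 39 members moved from 2 to 23. Efnb3 had 98.1% of its tags in the last exon and 0.208 RPKM without it, Efnb2 had 97.6% and 0.843 RPKM, and Ntn1 had 98.6% and 7 tags outside. In contrast Efna1 had 55.8% of its tags in the last exon and stayed first at 18.1 ± 9.62 RPKM. Epha7 had 24.8%, and at 6.18 ± 1.42 RPKM it became the second member. Dcc, at 2.06%, had the lowest share of the members. The median share over the 37 members tested was 61.3%, against 53.8% over the tested genes, while their last exons were a smaller part of the transcript (39.3% against 48.8% of its length).

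**Figure D3:**
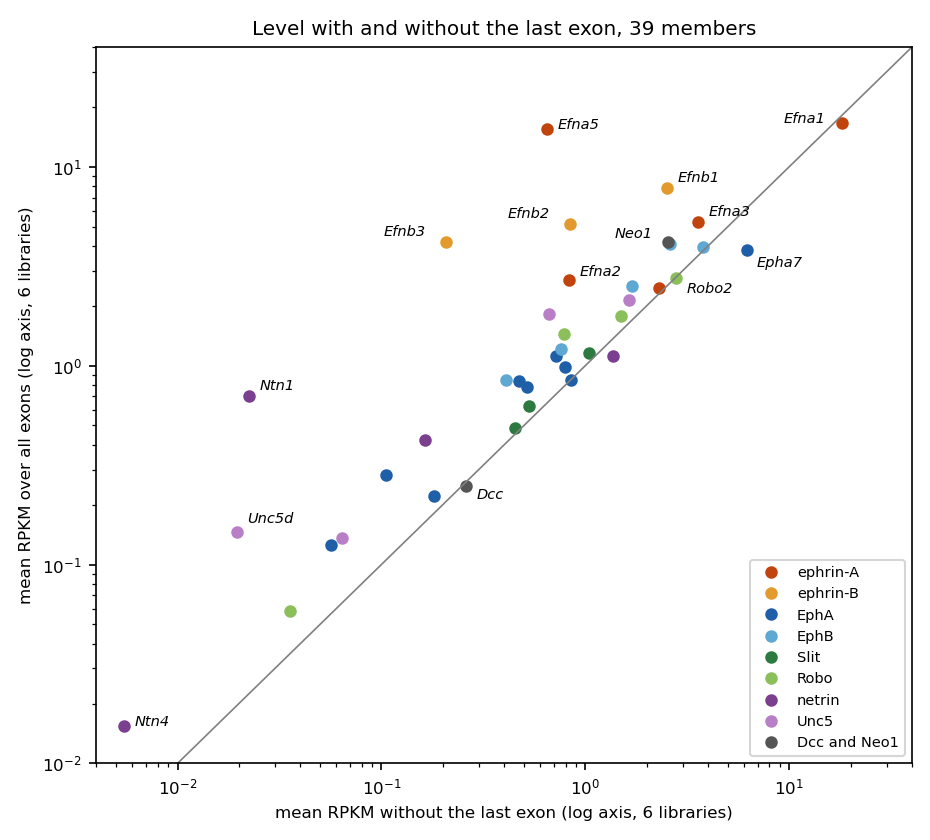
Mean RPKM of 39 members over all exons against mean RPKM without the last exon (both log axes, means of 6 libraries, colours for roles). Points above the diagonal are members whose tags concentrate in the last exon, with Efna5, Efnb3 and Ntn1 farthest from it and Epha7 below it.

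The inner exons showed the same slope toward the 3′ end in most members. Among 27 members with at least 20 tags there, the density of the 5′ part of the inner exons was 0.447 times that of the 3′ part in the median, against 0.782 over 9623 tested genes. In Neo1 exons 2 to 9 had 0.199 times the density of exons 20 to 28. The ratio exceeded 1 in 4 members, Dcc (2.39), Epha3 (2.27), Epha7 (1.51) and Unc5c (1.15), and in 25.2% of the tested genes. Several large genes also had many tags in introns. Intron 1 of Efna5, 229.9 kb long, held 17211 tags, and intron 1 of Unc5c, 212.1 kb, held 17761. These were spread at 74.9 and 83.7 tags per kb, and in Efna5 the intron density was 0.635 times that of exons 1 to 4. Over the tested genes the median of this ratio was 0.0164, and over the members 0.0399. Where these intron tags come from was not tested.

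Within families, 14 pairs of members were compared by the difference in log2(RPKM + 1) over the 6 libraries by an exact permutation test (two-sided, all sign changes) with p-values adjusted over the 14 pairs. The smallest p this design allows is 0.03125, which gave an adjusted p of 0.0438 for the 10 pairs that passed. Robo2 exceeded Robo1 by 0.59 ± 0.29 (SD, n = 6) and Robo1 exceeded Robo3 by 1.20 ± 0.12, both in 6 of 6 libraries. Neo1 exceeded Dcc by 2.05 ± 0.17 and Unc5c exceeded Unc5a, whose difference from it was -1.47 ± 0.29. Efna5 exceeded Efna2 by 2.19 ± 0.65 and Efnb1 exceeded Efnb2 by 0.50 ± 0.26. On counts per library size without the division by length (CPM), Efnb1 and Efnb2 differed by 0.16 and lost the call (adjusted p = 0.269, exact sign-flip test). The differences of Epha4 from Epha7 and of Ephb2 from Ephb4 were -1.22 ± 0.47 and -1.14 ± 0.44, again with 1 sign in 6 of 6 libraries. In CPM the difference of Ephb2 from Ephb4 was -0.32 and lost the call (adjusted p = 0.146, exact sign-flip test). Slit3 lay below Slit2 (-0.54 ± 0.36), and Ntn1 above Ntn4 (0.66 ± 0.50).

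The other 4 pairs did not pass. Slit2 was above Slit1 in 5 of 6 libraries (0.40 ± 0.28, exact sign-flip adjusted p = 0.0795). Efnb2 and Efnb3 differed by 0.31 ± 0.49, Unc5b and Unc5c by -0.16 ± 0.29, and Epha5 and Epha3 by -0.025 ± 0.22. When the last exon was left out, Slit2 exceeded Slit1 in 6 of 6 libraries (adjusted p = 0.0486, exact sign-flip test), and 9 pairs passed in all. Of the 10 pairs, 2 lost their call there: Ntn1 against Ntn4, at 0.024, and Efna5 against Efna2, which turned to -0.083 ± 0.54. With the transcript of the highest mean RPKM in place of the one with the most tags, 16 members changed transcript and 0 pairs passed, because fewer pairs then reached the smallest p and its adjusted value became 0.0547.

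Ligands and receptors were then compared as sums of RPKM within each library, without a test. The 8 ephrins summed to 51.6, 59.0 and 54.9 RPKM in the 3, 10 and 30 ng high-volume libraries and to 76.4, 60.4 and 55.7 RPKM in low volume. The 14 Eph receptors summed to 23.5, 18.9 and 20.4 RPKM in high volume and 24.2, 20.3 and 22.5 RPKM in low volume. Ligands thus exceeded receptors in 6 of 6 libraries, by 2.75 times in the mean (log2 1.46 ± 0.21, SD, n = 6). The excess lay in the A class, where 5 ephrin-A genes summed to 4.71 times the 9 EphA genes (log2 2.24 ± 0.32). In the B class it was 1.38 times (log2 0.46 ± 0.21). The order of the other systems was the reverse. The 4 Robos summed to 2.66 times the 3 Slits (log2 of Slits over Robos -1.41 ± 0.37), and the netrin receptors to 4.24 times the 4 netrins (log2 of netrins over receptors -2.09 ± 0.75).

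The B class did not keep its order when the last exon was left out. Ephrin-B then summed to 3.57 ± 1.73 RPKM and EphB to 9.23 ± 2.25 RPKM, a log2 ratio of -1.45 ± 0.51 with receptors higher in 6 of 6 libraries. Under the same change ephrins still exceeded Ephs, by a log2 ratio of 0.58 ± 0.25, and ephrin-A still exceeded EphA (log2 1.36 ± 0.38). Both excesses rested on Efna1, at a mean of 18.1 RPKM without its last exon. The ephrins then summed to 29.0 and the Ephs to 19.1 RPKM in the mean. Ephrin-A summed to 25.5 and EphA to 9.88 RPKM. The Robos and the netrin receptors stayed above their ligands, at log2 -1.27 ± 0.50 and -2.35 ± 1.39, with 1 exception: in the 3 ng high-volume library the netrins summed to 4.97 RPKM and their receptors to 4.76 RPKM. Taking the transcript with the highest mean RPKM also brought ephrin-B and EphB level, at -0.10 ± 0.15.

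**Figure D4:**
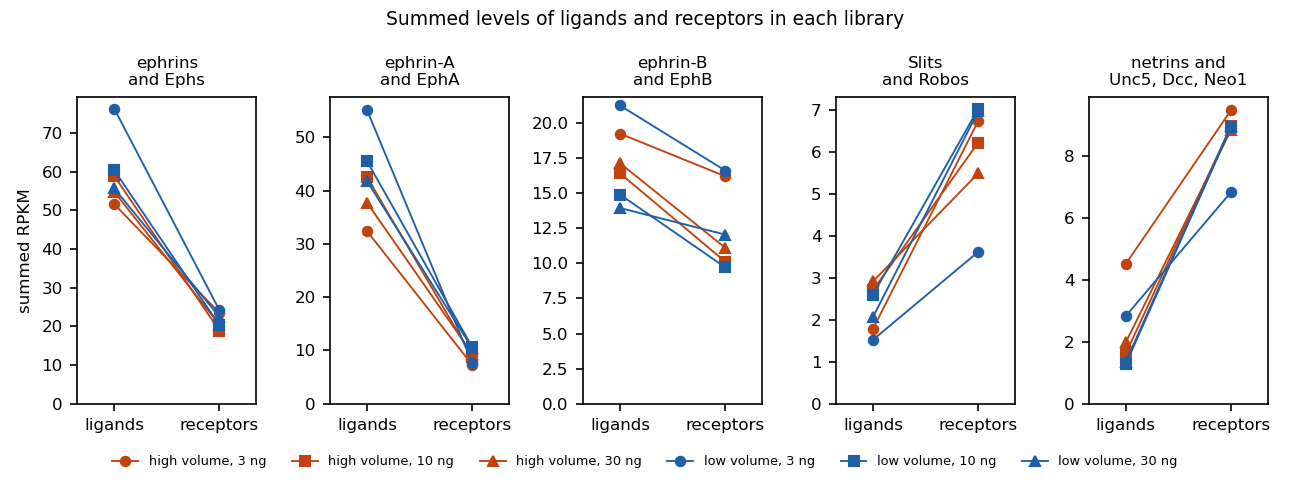
Summed RPKM of ligands and of receptors in each of the 6 libraries (1 line per library, colours for volume, symbols for input), with a separate axis from 0 for each system. All lines fall from ligands to receptors for the ephrin systems and rise for Slits and Robos and for netrins and their receptors.

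The design of the series asks whether the reaction volume and its kit change what is measured. Tag counts were tested with edgeR's quasi-likelihood test, and 37 of the 39 members passed the count filter; Ntn4 and Robo3 did not. Of these 37 members 0 passed an adjusted p of 0.05 between the volumes, where 0.0062% of all genes tested passed. At an unadjusted p under 0.05 there were 4 members, against a background of 6.67% of genes, with 5 members and 8.95% of genes in DESeq2. DESeq2 called 1.13% of genes and 0 members, but gave an adjusted p to 9 of the 37 members only. For Efna3 it gave none, with an unadjusted p of 7.93e-05. The 4 were Efna3 at a log2 difference of 1.26 ± 0.28 (high minus low volume, SE, edgeR adjusted p = 0.553), Efnb1 at 0.60 ± 0.18, Efna2 at 1.03 ± 0.37 and Ntn1 at 1.47 ± 0.59. Ntn1 rested on the 3 ng libraries: without the high-volume one it was at 0.82 (edgeR unadjusted p = 0.159), and without the low-volume one at 0.89 (0.0968). Of the 37 members 22 were above 0, with a median of 0.16, against 51.9% of all genes and a median of 0.018. In RPKM the high-volume libraries lay entirely above the low-volume ones in 5 members (Efnb1, Efna3, Efna2, Ntn1 and Slit1), where 4.03% of all genes did so. They lay entirely below in 3 members (Efna1, Efna5 and Epha1), where 15% of all genes did.

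Efna3 was the one member that passed when the 3 ng libraries were left out. In the 10 and 30 ng libraries it was higher in high volume by 1.31 ± 0.21 (SE, edgeR adjusted p = 0.0141), in a fit with 1 residual degree of freedom that called 1.68% of all genes. At an unadjusted p under 0.05 it had 4 members and 16% of genes. With a correction for GC content in the same libraries the difference was 1.22 ± 0.21 (SE, edgeR adjusted p = 0.00808). That fit called 374 of the 16564 genes tested, against 278 without the correction. In the other edgeR alternatives, with 5 or 6 libraries, its difference was 1.09 to 1.44 and its adjusted p 0.261 to 0.999. The difference was uneven along the transcript. The 4 exons before the last held 79, 84 and 114 tags in the 3, 10 and 30 ng high-volume libraries and 23, 15 and 19 tags in low volume. The last exon held 260, 307 and 280 tags in high volume and 159, 152 and 221 in low volume. In RPKM the earlier exons were at 5.95 ± 1.34 in high volume and 1.17 ± 0.684 in low volume (SD, n = 3), 5.09 times apart, and the last exon was 1.83 times apart. An excess outside the last exon was also seen in other members with fewer tags. Efna2 had 29, 16 and 30 tags there in high volume and 0, 4 and 8 in low volume. Efna5 had 7, 28 and 23 against 0, 4 and 15, which was 4.06 times apart in RPKM, while its last exon was at 0.744 times. For Efnb2 the earlier exons were 4.66 times apart, with 40 of their 79 tags in the 3 ng high-volume library. Other members went the other way outside the last exon. High volume was at 0.507 times low volume there in Efna1, 0.568 in Ephb4, 0.616 in Ephb3 and 0.490 in Unc5b. Over all members pooled, the share of tags outside the last exon was 29.9% to 36.9% in high volume and 30.0% to 33.6% in low volume. The part of the antisense gene Gm15998, which shares exonic bases with Efna3, was not tested.

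**Figure D5:**
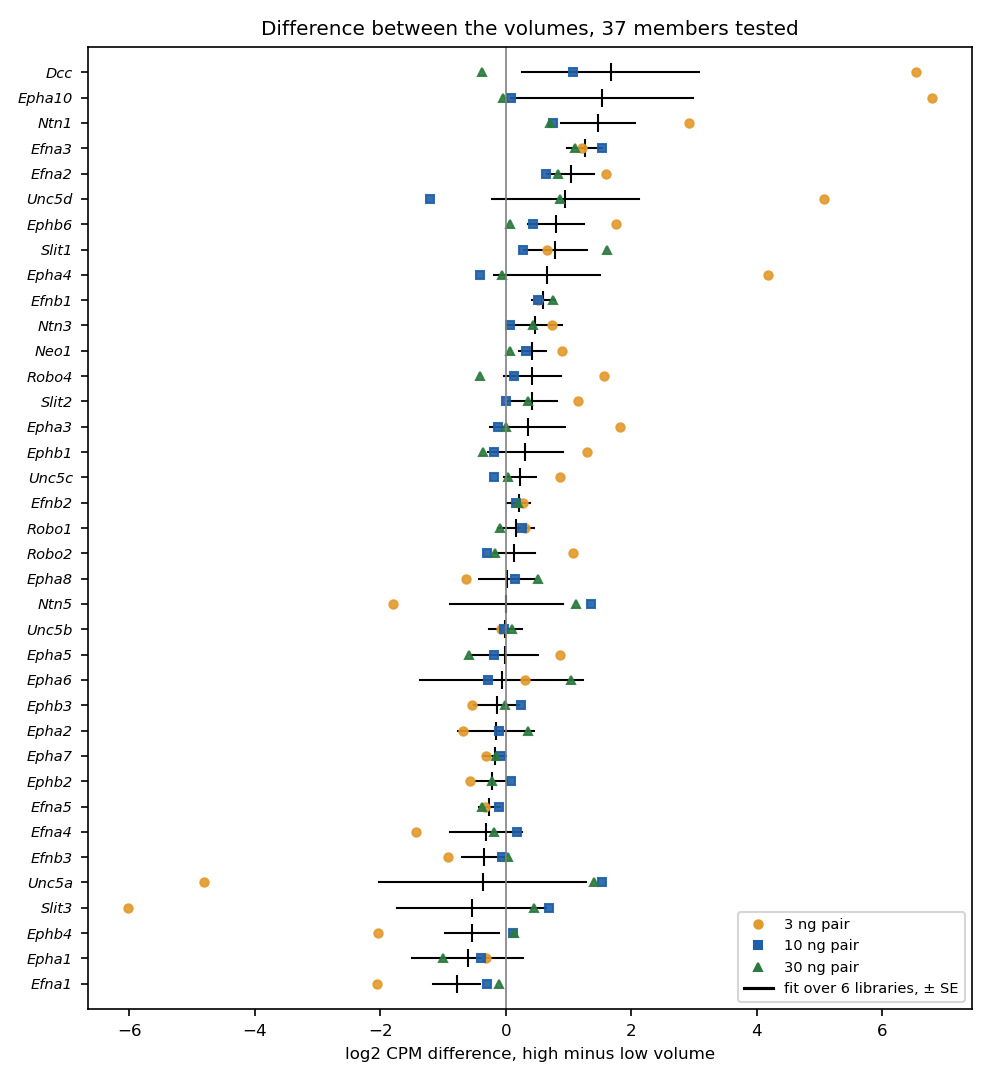
Log2 CPM difference (high minus low volume) for the 37 members tested, with 1 coloured symbol per input pair and the fit over 6 libraries with its SE in black. The 10 and 30 ng pairs sit near 0 for most members, and the 3 ng pairs scatter widely, where values beyond 4 come from libraries with 8 tags or fewer and depend on the small count added before taking logs.

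The volumes lay farthest apart at the lowest input. At 3 ng the absolute log2 difference between the volumes had a median of 1.07 over the 37 members and of 0.65 over all tested genes. At 10 ng these medians were 0.25 and 0.27, and at 30 ng 0.35 and 0.23. Differences of more than 1 on the log2 scale occurred in 19 members at 3 ng and in 5 each at 10 and 30 ng, against 36.4%, 8.80% and 5.29% of all tested genes. Efna3 was the member that differed by more than 1 in the same direction at all 3 inputs. The share of all tested genes that did so was not determined.

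For input, in the edgeR fit 0 of 37 members and 0% of genes passed for the slope per doubling of input. Slopes were above 0 in 20 members and in 56.4% of genes. DESeq2 called 0 members and 0.273% of genes, with an unadjusted p under 0.05 for 3 members and 12.5% of genes. In edgeR 1 member had an unadjusted p under 0.05, against 7.77% of genes, Epha3 at 0.66 ± 0.25 per doubling (SE, edgeR adjusted p = 0.6249). Without the 3 ng low-volume library its slope was 0.34 (unadjusted p = 0.0734), and over all single libraries left out it ranged up to 0.91. Epha3 had 35 and 12 tags in the 3 ng libraries and 145 to 235 tags in the others. For the interaction of volume and input, edgeR likewise called 0 members and 0% of genes, and DESeq2 0 members and 0.105% of genes (6 members and 11.8% of genes at an unadjusted p under 0.05). Values were above 0 in 16 members and in 49.8% of genes. There the unadjusted p was under 0.05 for Efna1 (0.59 ± 0.17), Ephb4 (0.66 ± 0.21) and Robo4 (-0.60 ± 0.23), against 8.36% of genes. Without the 3 ng high-volume library these were 0.28, 0.27 and -0.37, and their unadjusted p was 0.279, 0.368 and 0.440 in edgeR. Without the 3 ng low-volume library Ephb4 was at 0.40, and without the 30 ng high-volume library at 1.01. In all 3 the 3 ng pair lay apart from the pairs of 10 and 30 ng.

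Signalling partners of the receptors, taken from 3 lists, had median levels of 3.34, 4.98 and 2.96 RPKM, where the members had 1.15 RPKM. The median over the 16120 genes that passed the count filter was 3.42 RPKM, and 76.6% of those genes reached 1 RPKM. Of 25 Eph and ephrin partners 23 reached 1 RPKM, led by Sdcbp (110.0 RPKM), the syntenin that binds ephrin-B tails, Grb10 (33.2), Adam10 (27.1), a protease that sheds ephrins, and Chn1 (10.2), the chimaerin of EphA4 signalling. Of 20 Slit and Robo partners 19 reached it, led by the GTPases Cdc42 (318 RPKM) and Rhoa (131), the Slit-binding proteoglycan Gpc1 (28.9) and Evl (21.7). Of 20 netrin partners 18 did, led by Maged1 (302 RPKM), which binds Unc5 receptors, Rac1 (29.1), Pitpna (12.2) and Ablim1 (10.4). For the volumes 0 partners passed in edgeR, 1 in each list had an unadjusted p under 0.05, where 6.67% of all genes did, and the median log2 differences were 0.032, 0.047 and 0.026. For input 0 passed, and 1, 2 and 5 genes of the lists had an unadjusted p under 0.05, where 7.77% of all genes did.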

How the data were processed

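The 6 libraries fall into 3 high-volume and 3 low-volume libraries, 1 for each input, and replicates 1, 2 and 3 of each are the 10, 3 and 30 ng libraries. The tools named in the submitters' processing notes are CASAVA 1.8, TopHat2 2.0.8 and Bowtie2 2.1.0, with the build GRCm38.p1. The counting program and how it treated strand and multiply matching reads: not given in the sources used here. For each transcript, exon and intron the authors deposited a read count (tag count) and an RPKM, the count scaled to feature length and library size. Of 93615 transcripts 89664 were matched to GENCODE M21, and for each of the 37086 genes the 1 with the most tags was kept, since transcripts share reads. Some tags may belong to overlapping genes.

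From the deposited counts, edgeR 4.0.16 (R 4.3.3) tested 16120 genes after filterByExpr, with TMM scaling, volume and centred log2 input as terms and Benjamini-Hochberg adjustment over all genes; DESeq2 1.42.0 was an alternative. The edgeR script was tested on simulated counts. Exon levels were computed from exon tags on the authors' RPKM scale, and pairs of members were tested on log2(RPKM + 1). Alternatives were another scaling, no filter, another transcript per gene, leaving out libraries, a replicate block and, added after seeing the data, a GC correction, levels without the last exon, and sums and means over the 10 and 30 ng libraries. Values are given library by library for up to 3 members of each role with the highest mean RPKM, if it is 1 or more, and for members past a threshold. The exon counts of Efna2, Efna3, Epha3, Epha7, Neo1 and Robo2, the tags of single libraries of other members and the intron counts were described after their values were seen. Members, lists and comparisons were chosen with earlier results of these data known.

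Same-numbered libraries share the input amount. After removal of group means they deviated together, with correlations of 0.111 (10 ng), 0.132 (3 ng) and 0.126 (30 ng) over genes. The high-volume 10 ng and low-volume 30 ng libraries were at 0.103, and the high-volume 30 ng and low-volume 10 ng libraries at 0.0659. A 3 ng library against one of 10 or 30 ng was at -0.132 to -0.102. These values set 3 ng apart but hardly tell 10 ng from 30 ng. The numbers were taken to pair the libraries in the replicate block and in the differences at each input. The main edgeR fit was not paired and used centred log2 input as a linear term.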

Additional observations from a re-analysis of the deposited data

Results flagged for a closer look

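In 6 members 1 of the 6 libraries stood far from the others, by the ratio of its gap to the whole range, past Dixon's 95% limit. These are 16.2% of the 37 members tested, where 13.3% of the 16120 genes tested had such a library, and chance flags about 1 in 20 groups. All 6 were 3 ng libraries, as were 94.6% of those among all genes. In the 3 ng low-volume library Efnb3 was at 8.11 RPKM (437 tags) where the others spanned 2.73 to 3.80 RPKM, Ephb3 was at 4.09 RPKM (290 tags) against 1.70 to 2.56, Neo1 was at 2.54 RPKM (318 tags) against 4.16 to 4.99, and Epha4 was at 0.075 RPKM (8 tags) against 1.11 to 1.61. In the 3 ng high-volume library Ephb6 was at 10.1 RPKM (587 tags) against 2.15 to 3.38, and Ntn1 at 2.16 RPKM (192 tags) against 0.293 to 0.600. Both directions occurred, and the cause was not tested.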

How the results depend on the processing

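The count of members that differed between the volumes moved from 0 to 1 in the 10 and 30 ng libraries, without and with a GC correction. In these 2 fits 278 and 374 of 16564 genes passed. The count of members was 0 without any single library, as were the counts for input and for the interaction. With the input as a replicate block 0 members and 0 genes passed, and Efna3 was at 1.28 (edgeR adjusted p = 0.415); the block changed no member's call. DESeq2 called 182 genes in place of 1 for volume, 44 in place of 0 for input and 17 in place of 0 for the interaction, and without a filter edgeR called 11, 2 and 254; no member was among them, though DESeq2 gave 28 of 37 members no adjusted p for volume. Of the pairs, 10 passed, and 10 in CPM, where Efnb1 against Efnb2 and Ephb2 against Ephb4 lost the call and Slit2 against Slit1 (0.97) and Unc5b against Unc5c (-0.85) gained it; 5 of the 7 pairs with both members at 1 RPKM or more did, 0 with the transcript of the highest mean RPKM, and 0 to 0 without any single library, since 5 libraries allow no p under 0.0625. Epha5 against Epha3 turned to 0.054 with a pseudocount of 0.1, to 0.0063 with that transcript, and ranged from -0.081 to 0.045 without 1 library; Efna5 against Efna2 turned to -0.083 without the last exon. The log2 ratio of ephrins to Ephs was 0.60 in CPM, 0.94 with the transcript of the highest mean RPKM, 1.83 over members at 1 RPKM or more and 0.58 without the last exon. For ephrin-A and EphA these were 1.08, 1.78, 3.12 and 1.36. For ephrin-B and EphB it was 0.024 in CPM, -0.10 with that transcript, 0.19 without the highest member on each side and -1.45 without the last exon. Over members at 1 RPKM or more the Slits and Robos were at -2.41 and the netrins and their receptors at -2.98. Without 1 library the ranges were 1.42 to 1.52, 2.11 to 2.28, 0.41 to 0.51, -1.51 to -1.31 and -2.29 to -1.94 in this order of systems. Total-count scaling moved the median volume difference of all genes from 0.018 to -0.10 and of the members from 0.16 to 0.045. Tags carry no molecular identifiers, so intervals from counts cover counting error only.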
